A study of Homo sapiens with 40 samples.

Results

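The uninduced libraries of 3 guide lines were compared with each other, to describe how the lines differed before Cas9 was switched on. They were chosen by their labels as every library treated with DMSO, the solvent control. There were 12 of them among the 40 libraries of the series, 4 for each line. All lines were derived from RKO, an established human colorectal carcinoma cell line, which here carried Cas9 under a doxycycline (Dox)-inducible promoter together with GFP. Each line also carried a pair of guide RNAs, driven by a human and a mouse U6 promoter, on a lentiviral construct with eBFP2 behind a PGK promoter, and cells positive for eBFP2 were sorted. The sgIGF2BP2 line had guides against IGF2BP2, the sgIGF2BP3 line had guides against IGF2BP3, and the sgAAVS1 line had guides against AAVS1, a commonly used control locus. Every library, controls included, came from cells given the nucleoside s4U at 250 µM for 2 h, followed by alkylation of the RNA as in SLAMseq, an assay that marks newly made RNA. The 4 libraries of a group came from wells of 24-well plates, so p-values measure the spread between wells of 1 derived line, and a guide pair and the line that carries it cannot be told apart. The 7 other groups of 4 libraries were Dox (250 ng/mL for 72 h) in each line, a non-targeting siRNA (siControl, 75 nM for 48 h) in the sgIGF2BP2 and sgIGF2BP3 lines, and the siRNA pool against the line's own target. They entered the estimate of the spread and are set beside the uninduced values where named.

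IGF2BP2 and IGF2BP3 belong to a family of RNA-binding proteins that attach to mRNAs in the cytoplasm and are known for protecting many of them from decay. IGF2BP3 is an oncofetal member, abundant in embryonic tissue and in many tumours, while IGF2BP2 is widely expressed in adult tissue. In an inducible system the guides are present all the time and cutting waits for Cas9, so that uninduced cells serve as the reference from which an induced change is read. Lines made by separate transductions and sorts can still differ in genes unrelated to the guides.

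The guides are shown because they are what distinguishes the lines by design. Each is given 5′ to 3′ in lower case, and the capitals mark the 3 bases that follow it in the reference, the PAM that Cas9 needs.
sgIGF2BP2 guide 1: atatgtgacgttgacaacggCGG
sgIGF2BP2 guide 2: gtgcgctgaggttcaaccctGGG
sgIGF2BP3 guide 1: tggcaccgactgatagagctGGG
sgIGF2BP3 guide 2: gaagatactttctaggtccgAGG
sgAAVS1 guide 1: cgctgtgccccgatgcacacTGG
sgAAVS1 guide 2: ggcgcgtcgctcgctcgctc
By exact match to GENCODE 29 transcripts (GRCh38), the sgIGF2BP2 guides lay in coding sequence of exon 5 (chr3:185692722-185692741) and exon 10 (chr3:185672630-185672649) of 16. The sgIGF2BP3 guides lay in coding sequence of exon 11 (chr7:23319200-23319219) and exon 1 (chr7:23470045-23470064) of 15. Both genes are on the minus strand, and all 4 guides read antisense to them. The first sgAAVS1 guide matched the RefSeq promoter table (GRCh38.p14) at chr19:55117789-55117808, 152 to 171 bases before the annotated start of PPP1R12C, the gene that hosts AAVS1, which lies on the minus strand. The second sgAAVS1 guide had no exact match in the transcripts or the promoter table, so its position and PAM are not given.

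Levels are given in CPM, counts relative to a library size scaled by TMM (trimmed mean of M-values). Neither targeted gene was called between the uninduced lines by edgeR, a call being an adjusted p under 0.05. IGF2BP2 was at 88.9, 89.2, 84.7 and 93.9 CPM in sgAAVS1, at 83.8, 84.0, 86.5 and 86.7 in sgIGF2BP2, and at 92.6, 98.0, 93.8 and 93.2 in sgIGF2BP3. The sgIGF2BP2 line was thus lowest in its own target, but its libraries overlapped those of sgAAVS1. Against sgAAVS1 the log2 fold change was -0.06 (95% interval -0.15 to 0.02), with an adjusted p of 0.824 in edgeR's quasi-likelihood test. Between sgIGF2BP3 and sgIGF2BP2, whose libraries did not overlap, it was 0.14 (95% interval 0.06 to 0.23, adjusted p = 0.637, unadjusted p = 0.00139). IGF2BP3 was at 179, 158, 167 and 183 CPM in sgAAVS1, at 185, 165, 181 and 184 in sgIGF2BP2, and at 180, 181, 175 and 185 in sgIGF2BP3. All 3 lines overlapped, and the sgIGF2BP3 line differed from sgAAVS1 by 0.07 on the log2 scale (95% interval -0.01 to 0.15, edgeR adjusted p = 0.486). With Dox, for scale, the mean level of IGF2BP2 was 33.9 ± 3.5 CPM (SD, n = 4) in sgIGF2BP2 and that of IGF2BP3 was 56.2 ± 3.62 CPM (SD, n = 4) in sgIGF2BP3. IGF2BP1, the remaining family member, had no count in any of the 12 libraries, which by 3 counts allows up to 0.253 CPM in the smallest library (counting error only). Both tested genes have processed pseudogenes, and how the deposited counting treated reads shared with them is not given in the sources used here.

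SPOP, which encodes the substrate adaptor of a CUL3 ubiquitin ligase, was examined because earlier results of these data showed it low in the induced sgAAVS1 line, where it stood at 10.1 to 13.1 CPM. Before induction SPOP was at 38.9, 36.5, 35.7 and 35.8 CPM in sgAAVS1, at 36.7, 36.3, 40.1 and 37.0 in sgIGF2BP2, and at 39.1, 42.2, 35.6 and 39.3 in sgIGF2BP3. The 3 lines overlapped. The sgIGF2BP2 and sgIGF2BP3 lines differed from sgAAVS1 by 0.04 and 0.09 on the log2 scale (95% intervals -0.08 to 0.16 and -0.03 to 0.21, edgeR adjusted p = 0.913 and 0.545). PPP1R12C, the host gene of AAVS1, had mean levels of 139 ± 7.22 CPM in sgAAVS1, 134 ± 4.86 in sgIGF2BP2 and 124 ± 3.96 in sgIGF2BP3 (SD, n = 4 each). The log2 fold change of PPP1R12C between sgIGF2BP3 and sgAAVS1 was -0.16 (edgeR adjusted p = 0.149).

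Total counts of the 12 libraries ranged from 11900000 to 24800000 (median 14400000). edgeR's filter kept 11428 genes, which held 99.976% of the counts. Replicate pairs differed by a chi-square of 1.739 to 4.848 per gene, against 1 for sampling noise alone, the highest being sgAAVS1 replicates 2 and 4. Most markers of colorectal epithelium were low or absent in all 3 lines: EPCAM, CDX2 (17.3 to 22.6 CPM), KRT8 and KRT18 (184 to 214 CPM) were expressed, 16 of 20 markers, among them CDH1 and VIL1, were under 1 CPM, and 6 of these had no count. The summed level of the 20 was 277 to 307 CPM in sgAAVS1, 279 to 288 in sgIGF2BP2 and 274 to 286 in sgIGF2BP3. Of 10 mesenchymal markers, VIM, ZEB1 and SNAI1 passed the filter, with a summed level for all 10 of 246 to 275, 244 to 267 and 248 to 262 CPM in the same order. No fibroblast or endothelial marker passed it, nor did any leukocyte marker other than CD68, and PTPRC had no count.

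Few genes were called between the uninduced lines in the main fit, which had no replicate block. A gene was called when its adjusted p was under 0.05 over the 11428 genes tested. Between sgIGF2BP2 and sgAAVS1, 2 genes were called (0.0175% of those tested), DUSP6 and KRT79, both lower in sgIGF2BP2. Between sgIGF2BP3 and sgAAVS1, 4 genes were called (0.035%). MSN and DUSP6 were lower and CLSPN and PHIP higher in sgIGF2BP3. Between sgIGF2BP3 and sgIGF2BP2, 2 genes were called (0.0175%), MSN and IL13RA2, both lower in sgIGF2BP3. The test of any difference among the 3 lines called 3 genes (0.0263%), MSN, DUSP6 and KRT79, with 9.15% of genes at an unadjusted p under 0.05. At an unadjusted p under 0.05 the pairwise counts were 759, 1341 and 679 genes (6.64%, 11.7% and 5.94%), and 339, 678 and 466 genes (2.97%, 5.93% and 4.08%) had no overlap between the 4 libraries of one line and the 4 of the other. Between sgIGF2BP3 and sgAAVS1 the count was 76 without sgAAVS1 replicate 4 and 27 with no filter on low counts, and that of the 3-group test was 22 and 20. With a replicate block in the 12 libraries alone, the pairwise counts were 5, 108 and 9 and that of the 3-group test was 49. What a replicate number marks is not given in the sources used here. For scale, the same pairs of lines after Dox differed in 1508, 1202 and 1207 called genes (13.2%, 10.5% and 10.6%).

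**Figure D1:**
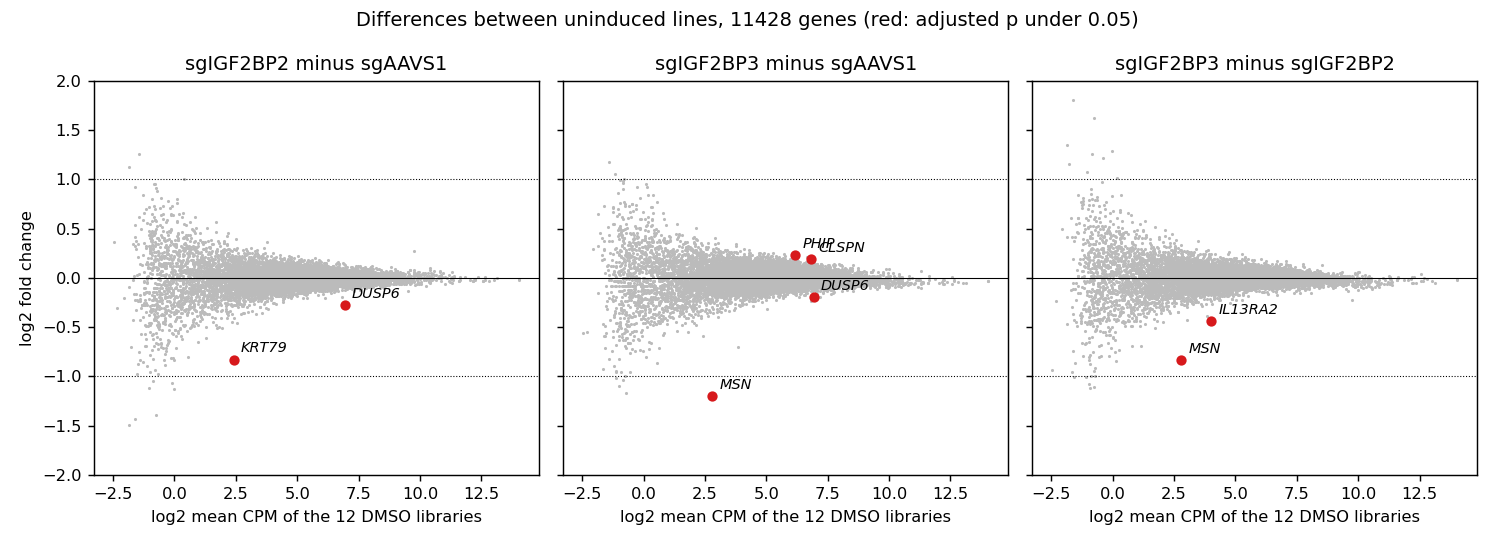
Log2 fold change of each of the 11428 genes between pairs of uninduced lines (vertical axis) against its log2 mean CPM over the 12 DMSO libraries (horizontal axis); red points are called genes and dotted lines mark a change of 2-fold. In each panel the grey cloud narrows as the level rises, and the called genes are the 2, 4 and 2 named in the text.

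For most genes the interval of the difference was narrow. The median absolute log2 fold change was 0.0503 for sgIGF2BP2 against sgAAVS1, 0.0589 for sgIGF2BP3 against sgAAVS1 and 0.0475 for sgIGF2BP3 against sgIGF2BP2, with median standard errors of 0.0633, 0.063 and 0.0626. The 95% interval of the fold change lay within 1.5-fold in either direction for 91.0%, 90.7% and 91.2% of genes, and within 1.2-fold for 71.3%, 69.1% and 72.2%. Among the 9908 genes that averaged 2 or more on the log2 CPM scale, the share within 1.5-fold was 99.7%, 99.6% and 99.7%. Estimates of at least 2-fold were found for 10, 8 and 15 genes, of which MSN between sgIGF2BP3 and sgAAVS1 was called. Of the variance of log2 CPM among the 12 libraries, 19.87% lay between lines, where 18.18% would follow from the degrees of freedom alone. The first principal component held 14.23% of the variance, and 28.43% of that component lay between lines. The second held 11.09%, of which 47.47% lay between lines, the highest share among the 11 components.

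MSN had the largest called difference. It encodes moesin, which links actin filaments to the plasma membrane, and lies at chrX:65588377-65741931 on the plus strand (GRCh38). MSN was at 7.96, 9.07, 11.1 and 9.36 CPM in sgAAVS1, at 7.37, 7.21, 6.8 and 8.09 in sgIGF2BP2, and at 4.07, 4.54, 3.82 and 3.79 in sgIGF2BP3. All 4 sgIGF2BP3 libraries were below the 8 others, while sgAAVS1 and sgIGF2BP2 overlapped. The counts behind these values were 54 to 77 per library in sgIGF2BP3 and 84 to 167 in the other lines. In edgeR, MSN was 2.29-fold lower in sgIGF2BP3 than in sgAAVS1 (log2 fold change -1.2, SE 0.16, adjusted p = 1.14e-06) and lower by 0.84 on the log2 scale than in sgIGF2BP2 (SE 0.16, edgeR adjusted p = 0.0209). Between sgIGF2BP2 and sgAAVS1 the log2 fold change was -0.36 (SE 0.14, edgeR adjusted p = 0.648). The call against sgIGF2BP2 was lost without any 1 of sgIGF2BP2 replicates 1, 3 and 4 or of the 4 sgIGF2BP3 replicates, whereas the call against sgAAVS1 held in all 25 alternatives that gave a value.

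Relatives of MSN and its neighbours on the chromosome are set beside it. Per length, MSN was at 1.57, 1.23 and 0.679 RPKM (CPM divided by kilobases of exon) in sgAAVS1, sgIGF2BP2 and sgIGF2BP3. EZR, which encodes ezrin, a membrane linker of the same family, was at 50.6, 50.7 and 50.9 RPKM. RDX, the remaining family member, had no count in any uninduced library. The 10 tested genes nearest to MSN on chromosome X had log2 fold changes of -0.11 to 0.13 between sgIGF2BP3 and sgAAVS1, with edgeR adjusted p of 0.45 or more. MSN has a processed pseudogene, so its counts are uncertain to the extent that reads were shared with it.

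The lower MSN of the sgIGF2BP3 line was also seen in libraries that the uninduced comparison did not use. With siControl, MSN was lower by 0.86 on the log2 scale in sgIGF2BP3 than in sgIGF2BP2 (SE 0.16, edgeR adjusted p = 0.0107), a call lost without any 1 of sgIGF2BP2 replicates 3 and 4 or sgIGF2BP3 replicates 2 and 4 of that group. The difference between that contrast and the uninduced one was 0.02 (95% interval -0.45 to 0.5, edgeR adjusted p = 0.994). With Dox, the log2 fold change of sgIGF2BP3 was -1.01 against sgAAVS1 and -0.95 against sgIGF2BP2 (edgeR adjusted p = 3.98e-05 and 0.000117). The sgIGF2BP2 libraries with Dox were uneven, at 11.3, 5.75, 6.62 and 6.1 CPM, and no Dox library was left out in turn. Over all treatments, uninduced libraries included, MSN ranged from 2.11 to 5.37 CPM (median 3.84) in the 16 sgIGF2BP3 libraries. In the 24 libraries of the other lines it ranged from 4.68 to 11.3 CPM (median 7.41), and 14 of the 16 were below all 24. MSN was named by a rule that required no overlap between lines in the uninduced libraries, which are part of these counts.

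IL13RA2, on chrX:115003975-115019977 (minus strand), encodes a decoy receptor that binds interleukin 13. It was at 17.1, 14.9, 15.5 and 17.0 CPM in sgAAVS1, at 20.1, 16.8, 17.7 and 19.5 in sgIGF2BP2, and at 13.6, 12.3, 14.1 and 14.5 in sgIGF2BP3. The sgIGF2BP3 libraries were below the 8 others, and those of sgAAVS1 and sgIGF2BP2 overlapped. IL13RA2 was lower in sgIGF2BP3 than in sgIGF2BP2 by 0.44 on the log2 scale (SE 0.087, edgeR adjusted p = 0.0209). Against sgAAVS1 the log2 fold change was -0.25 (edgeR adjusted p = 0.256). The difference between sgIGF2BP3 and sgIGF2BP2 was -0.37 with siControl (edgeR adjusted p = 0.383) and -0.55 with Dox (edgeR adjusted p = 2.97e-05). Over all treatments, 11 of the 16 sgIGF2BP3 libraries were below the 24 libraries of the other lines. These include the uninduced libraries, in which the rule that named IL13RA2 required no overlap between sgIGF2BP3 and sgIGF2BP2. As for MSN, the uninduced call was lost without any 1 of 7 of the 8 libraries compared, sgIGF2BP2 replicate 2 being the exception. The 10 tested genes nearest to IL13RA2 had log2 fold changes of 0.01 to 0.27 in the same comparison, with edgeR adjusted p of 0.852 or more.

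**Figure D2:**
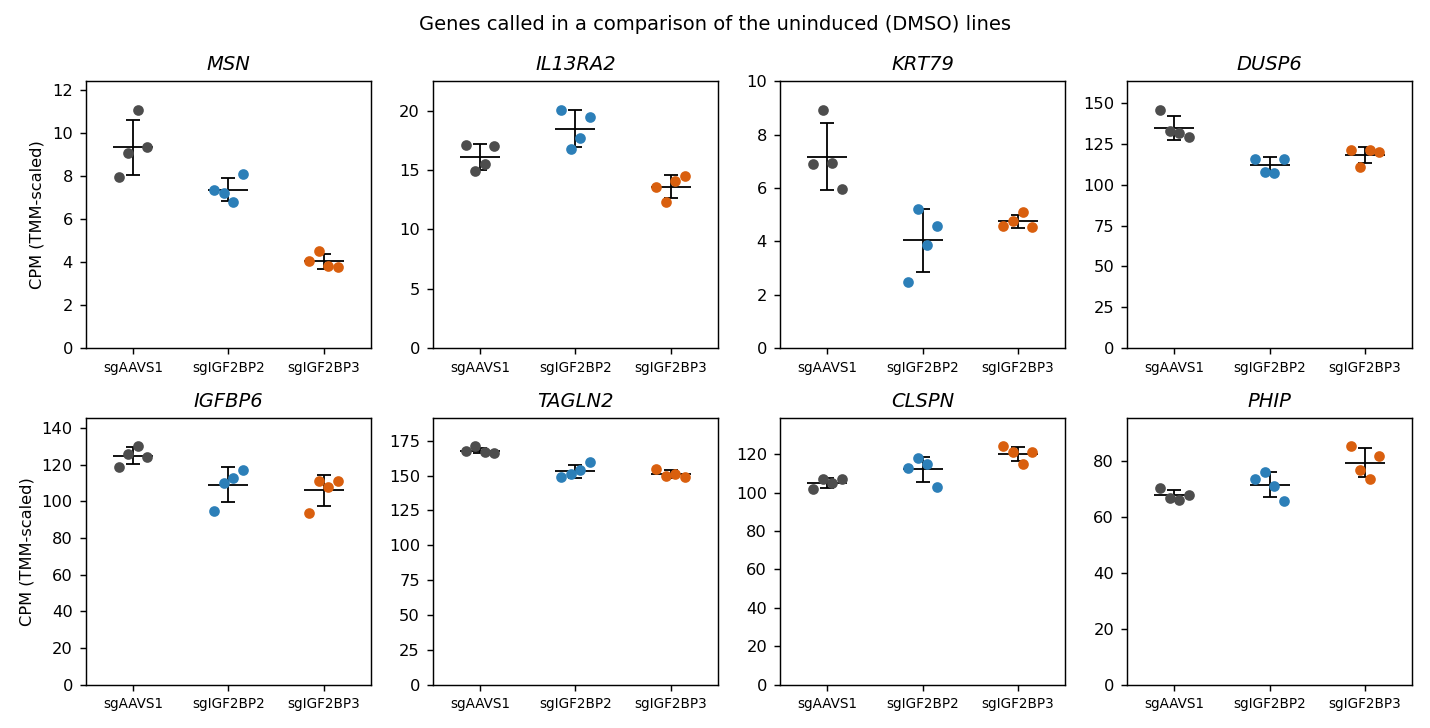
Level of the 8 called genes in the 12 uninduced libraries, in CPM on TMM-scaled library sizes; points are libraries, and bars show the mean ± SD of each line (n = 4). MSN and IL13RA2 are lowest in all 4 sgIGF2BP3 libraries, and KRT79, DUSP6, IGFBP6 and TAGLN2 are highest in all 4 sgAAVS1 libraries.

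Against the mean of the other lines, 5 genes (0.0438%) were called for sgAAVS1, all higher in it: DUSP6, KRT79, MSN, TAGLN2 and IGFBP6. For MSN this did not set sgAAVS1 apart from both others, since its libraries overlapped those of sgIGF2BP2 (edgeR adjusted p = 0.648 between them). A single gene was called for each other line against the mean of the remaining lines. DUSP6 was lower in sgIGF2BP2 (0.00875%), whose libraries overlapped those of sgIGF2BP3 (edgeR adjusted p = 0.833 between them). This call was lost without any 1 of sgAAVS1 replicate 1, sgIGF2BP2 replicates 2 and 3 or sgIGF2BP3 replicates 1, 3 and 4. MSN was lower in sgIGF2BP3 (0.00875%). On library totals without TMM, sgIGF2BP3 was set apart by 3 genes, 2 higher (PHIP and PHF20) and MSN lower, and it was called against sgAAVS1 in 3, CLSPN and PHIP higher and MSN lower.

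DUSP6 encodes a phosphatase that inactivates the kinase ERK and is itself induced by ERK signalling, which makes it a common readout of that pathway. It lies at chr12:89347232-89353271 on the minus strand. DUSP6 was at 146, 133, 132 and 129 CPM in sgAAVS1, at 116, 108, 107 and 116 in sgIGF2BP2, and at 121, 111, 121 and 120 in sgIGF2BP3. All 4 sgAAVS1 libraries were above the 8 others, which overlapped each other. DUSP6 was lower than in sgAAVS1 by 0.27 on the log2 scale in sgIGF2BP2 (SE 0.04, edgeR adjusted p = 3.34e-05) and by 0.19 in sgIGF2BP3 (SE 0.039, edgeR adjusted p = 0.0423). The second of these calls was lost without any 1 of sgAAVS1 replicates 1, 2 and 3 or sgIGF2BP3 replicates 1, 2 and 4. The order of the lines was the opposite after Dox, with 102 to 110 CPM in sgAAVS1, 137 to 148 in sgIGF2BP2 and 123 to 131 in sgIGF2BP3. The contrast with sgAAVS1 moved from the uninduced to the induced libraries by 0.69 for sgIGF2BP2 and by 0.44 for sgIGF2BP3 (edgeR adjusted p = 9.43e-15 and 1.4e-07). Moves of this kind were called in 6.93% and 7.61% of genes, and in 2.91% for sgIGF2BP3 against sgIGF2BP2, where DUSP6 moved by -0.24 (edgeR adjusted p = 0.00631).

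KRT79, a type II keratin gene at chr12:52821410-52834295 on the minus strand, was at 6.9, 8.94, 6.94 and 5.95 CPM in sgAAVS1, at 2.48, 5.23, 3.87 and 4.58 in sgIGF2BP2, and at 4.57, 4.77, 5.09 and 4.55 in sgIGF2BP3. The sgAAVS1 libraries were above all others. KRT79 was 1.78-fold lower in sgIGF2BP2 than in sgAAVS1 (log2 fold change -0.83, SE 0.14, edgeR adjusted p = 0.000366). In sgIGF2BP3 the log2 fold change against sgAAVS1 was -0.59 and did not pass the test (SE 0.13, edgeR adjusted p = 0.0512), though it did with a filter of 1 CPM in 4 libraries, with no filter, after thinning all libraries to the smallest total, and without any 1 of sgAAVS1 replicate 4 and sgIGF2BP2 replicates 1 and 2. After Dox the same contrasts were -0.7 and -0.44 (edgeR adjusted p = 0.000355 and 0.0357). At 2.83, 1.59 and 1.87 RPKM in sgAAVS1, sgIGF2BP2 and sgIGF2BP3, its level per length was below that of the simple epithelial keratin KRT18, at 62.7, 61.9 and 59.4 RPKM. Counts of KRT79 were 30 to 132 per library, and without sgAAVS1 replicate 2 the contrast of sgAAVS1 with the mean of the others was not called.

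IGFBP6 (chr12:53097436-53102345), which encodes a secreted protein that binds insulin-like growth factor 2, was at 119, 126, 130 and 124 CPM in sgAAVS1, at 95, 110, 113 and 117 in sgIGF2BP2, and at 93.7, 111, 108 and 111 in sgIGF2BP3. TAGLN2 (chr1:159918107-159925732), which encodes the actin-binding protein transgelin 2, was at 168, 171, 167 and 166 CPM, at 149, 151, 154 and 160, and at 155, 150, 151 and 149 in the same lines. For both genes the sgAAVS1 libraries were above the 8 others, by small margins. Against the mean of the other lines, sgAAVS1 was higher by 0.22 for IGFBP6 (SE 0.047, edgeR adjusted p = 0.0449) and by 0.14 for TAGLN2 (SE 0.029, edgeR adjusted p = 0.0194) on the log2 scale. Both calls were lost with an offset for GC content (edgeR adjusted p = 0.246 and 0.22), which is described below, and without any 1 of sgAAVS1 replicates 1, 2 and 3 or sgIGF2BP2 replicate 1, and that of IGFBP6 also without sgIGF2BP2 replicate 2 or sgIGF2BP3 replicate 1. After Dox, sgIGF2BP2 and sgIGF2BP3 were below sgAAVS1 by log2 fold changes of -0.3 and -0.43 for IGFBP6 and -0.42 and -0.3 for TAGLN2, all called.

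**Figure D3:**
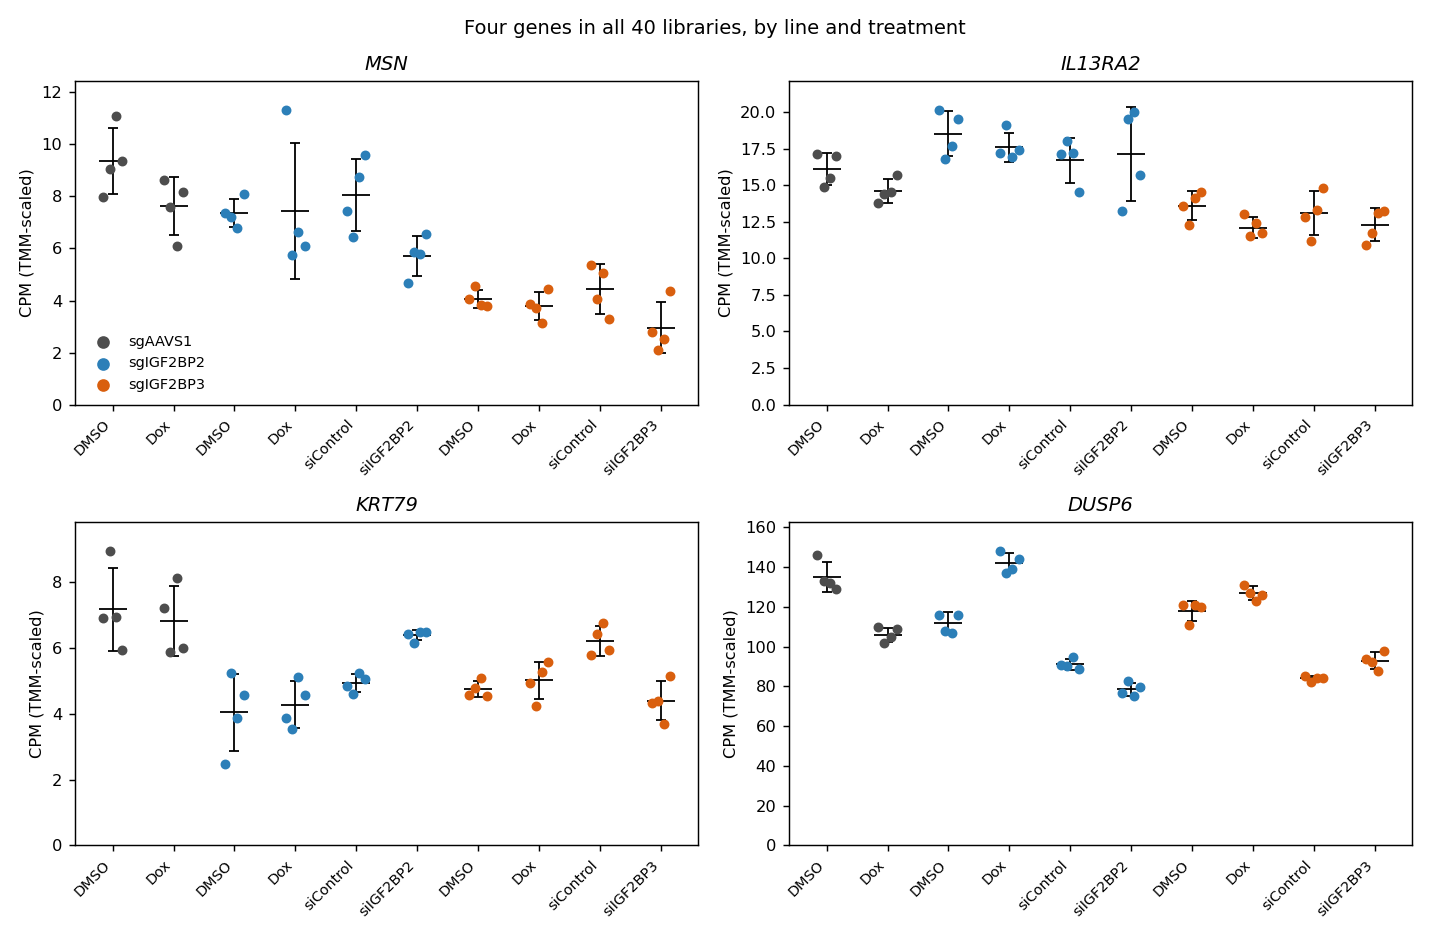
Level of MSN, IL13RA2, KRT79 and DUSP6 in all 40 libraries, in CPM on TMM-scaled library sizes, by line (colour) and treatment (horizontal axis); points are libraries and bars show the mean ± SD (n = 4). MSN is at 2.11 to 5.37 CPM in the sgIGF2BP3 libraries under every treatment, while DUSP6 is highest in sgAAVS1 among the DMSO groups and lowest in sgAAVS1 among the Dox groups.

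CLSPN and PHIP were the genes called higher in sgIGF2BP3 than in sgAAVS1. CLSPN (chr1:35720218-35769967, minus strand) encodes claspin, an adaptor of the DNA replication checkpoint, and was at 102, 107, 105 and 107 CPM in sgAAVS1, at 113, 118, 115 and 103 in sgIGF2BP2, and at 124, 121, 115 and 121 in sgIGF2BP3. PHIP (chr6:78935867-79078236, minus strand) encodes a bromodomain protein and was at 70.4, 66.8, 65.9 and 67.7 CPM, at 73.3, 75.8, 71.0 and 65.5, and at 85.1, 76.7, 73.5 and 81.6 in the same lines. For both genes sgIGF2BP3 lay above sgAAVS1 without overlap, and sgIGF2BP2 overlapped sgAAVS1. CLSPN was higher by 0.19 (SE 0.042) and PHIP by 0.23 (SE 0.049) on the log2 scale, both with an edgeR adjusted p of 0.0492. With an offset for GC content the log2 fold changes were 0.18 for CLSPN (edgeR adjusted p = 0.131) and 0.15 for PHIP (edgeR adjusted p = 0.528). Each call was also lost without any 1 of 7 libraries, sgAAVS1 replicates 1 to 3, sgIGF2BP2 replicate 3 and sgIGF2BP3 replicates 1, 2 and 4. PHIP shares exon bases with IRAK1BP1 on the opposite strand, and whether the counting used strand is not given in the sources used here.

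Gene lists for 27 themes held few genes called between uninduced lines. Over the 25 lists with a tested member, DUSP6 was the called member, in each comparison with sgAAVS1, where 0.0175% and 0.035% of all genes were called. Among the 20 lists with at least 10 tested members, the median log2 fold change ranged from -0.081 to 0.046 between sgIGF2BP2 and sgAAVS1, from -0.065 to 0.04 between sgIGF2BP3 and sgAAVS1 and from -0.036 to 0.042 between sgIGF2BP3 and sgIGF2BP2. The medians of all genes tested were -0.003, -0.006 and -0.002. Among these 20 lists, extracellular matrix and integrin genes had the highest share at an unadjusted p under 0.05 between sgIGF2BP2 and sgAAVS1. Of 25 tested, 5 were lower and 0 higher at that level (20% against 6.64% of all genes), with a median of -0.043 and none called. Heat shock proteins (2 higher and 1 lower of 16, 18.8%) and NF-kB targets and cytokines (1 higher and 2 lower of 17, 17.6%) followed. Between sgIGF2BP3 and sgAAVS1, 3 matrix and integrin genes were lower and 2 higher at that level (20% against 11.7% of all genes, median -0.055).

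Feedback genes of the MAPK pathway, which ERK signalling switches on to restrain itself, held the called gene DUSP6. Of 25 tested members of 28, 5 were lower and 0 higher at an unadjusted p under 0.05 between sgIGF2BP3 and sgAAVS1 (20% against 11.7% of all genes), with a median of -0.051. Between sgIGF2BP2 and sgAAVS1 3 were lower and 0 higher (12% against 6.64%), with a median of -0.047. DUSP6 itself is among the genes counted as lower in both comparisons. Per length, DUSP6 was at 29.1, 24.1 and 25.5 RPKM, DUSP5, another phosphatase of ERK, at 22.8, 21.0 and 21.2, and DUSP4 at 0.293, 0.322 and 0.326 in sgAAVS1, sgIGF2BP2 and sgIGF2BP3. Immediate early genes, which respond to the same signals, had 4 of 29 lower and 0 higher at an unadjusted p under 0.05 in sgIGF2BP3 against sgAAVS1 (13.8%, near the 11.7% of all genes), a median of -0.064 and no called member.

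Genes of the G2 phase and mitosis had no called member in any pair of lines by edgeR. Of the 36 tested, 7 were higher and 0 lower at an unadjusted p under 0.05 in sgIGF2BP3 against sgAAVS1 (19.4% against 11.7% of all genes), with a median of 0.04 and the highest value, 0.29, for HMMR, a microtubule-associated protein. In sgIGF2BP2 against sgAAVS1, 5 were higher and 0 lower (13.9% against 6.64%), with a median of 0.046. In sgIGF2BP3 against sgIGF2BP2, 2 were higher and 1 lower (8.33% against 5.94%), with a median of -0.009. In the comparisons with sgAAVS1, the G1/S and replication list had medians of -0.022 and -0.015.

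The unfolded protein response, by which cells react when proteins misfold inside the endoplasmic reticulum, is the subject of the series and had 0 of 34 tested genes called by edgeR in any pair of lines. At an unadjusted p under 0.05, 5 were higher and 1 lower in sgIGF2BP3 against sgAAVS1 (17.6% against 11.7% of all genes, median 0.021), and 2 were higher and 0 lower in sgIGF2BP2 against sgAAVS1 (5.88%, near the 6.64% of all genes, median 0.009). The integrated stress response had 0 of 27 called by edgeR, with 1 higher and 1 lower at an unadjusted p under 0.05 in sgIGF2BP3 against sgAAVS1 (7.41%, below the 11.7% of all genes, median -0.017). p53 targets had 0 of 31 called by edgeR, with 1 higher and 3 lower at an unadjusted p under 0.05 (12.9%, median -0.002) in the same comparison, a share near that of all genes. Reported IGF2BP target mRNAs had 0 of 22 called by edgeR, with 2 higher and 1 lower at an unadjusted p under 0.05 (13.6%, median 0.005), which was also near it. Their member MYC was called there by edgeR with a replicate block in the 12 libraries alone. NRF2 antioxidant genes had the highest share at an unadjusted p under 0.05 in that comparison among lists of at least 10, 28.6% of 21 against 11.7% of all genes, made up of 2 higher and 4 lower, with a median of -0.048. Between uninduced lines DESeq2 called no member of these 5 lists but added ANGPTL4 and DNAJB1, both lower in sgIGF2BP3 than in sgAAVS1, from the glycolysis and heat shock lists. With no filter on low counts, edgeR called the G2 and mitosis gene KIF14 and ANGPTL4 in that comparison. It also called MT-ATP8, of the mitochondrially encoded list, as higher in sgIGF2BP2 than in sgAAVS1 and lower in sgIGF2BP3 than in sgIGF2BP2.

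Along the genome, the differences between lines had medians near 0 on every chromosome. Median log2 fold changes per chromosome ranged from -0.026 to 0.032 between sgIGF2BP2 and sgAAVS1, from -0.045 to 0.036 between sgIGF2BP3 and sgAAVS1 and from -0.03 to 0.012 between sgIGF2BP3 and sgIGF2BP2. The value of -0.045 was that of chromosome 19, where 73.8% of 866 genes were lower in sgIGF2BP3 than in sgAAVS1. That share was 71.3% on chromosome 22 and 68.1% on chromosome 16, and went down to 30.7% on chromosome 18. Over 10283 runs of 50 neighbouring tested genes, the medians spanned -0.095 to 0.085 in that comparison, -0.059 to 0.065 for sgIGF2BP2 against sgAAVS1 and -0.047 to 0.048 for sgIGF2BP3 against sgIGF2BP2. In both comparisons with sgAAVS1 the lowest run lay on distal chromosome 19, at chr19:53431993-56655766 for sgIGF2BP3 and chr19:53365693-56436035 for sgIGF2BP2. Both stretches hold the position matched by the first sgAAVS1 guide. The lowest run of 25 genes held that position for sgIGF2BP3 (chr19:54189938-55603138) but not for sgIGF2BP2 (chr19:55339853-56655766). The lowest runs of 100 genes lay outside the stretches of 50, 0 genes of chromosome 19 were called, and the cause was not tested.

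Base composition moved with the differences between lines. Between sgIGF2BP3 and sgAAVS1, genes with a transcript GC content up to 41.9% had a median log2 fold change of 0.058 and those from 56.8% had -0.051. For sgIGF2BP2 against sgAAVS1 the medians were 0.035 and -0.038, and for sgIGF2BP3 against sgIGF2BP2 0.027 and -0.015. Across 11423 genes, which are not independent replicates, Spearman's rho between log2 fold change and GC content was -0.45, -0.33 and -0.19. The same measure, taken within single libraries as the deviation of low-GC from high-GC genes, was -0.057, -0.158, -0.114 and 0.082 in sgAAVS1, 0.131, -0.111, 0.038 and -0.024 in sgIGF2BP2, and 0.034, 0.016, 0.059 and 0.105 in sgIGF2BP3. Within sgAAVS1 and within sgIGF2BP2, libraries differed in it by as much as the lines did. The 4 sgIGF2BP3 libraries lay closer together, at 0.016 to 0.105, and sgAAVS1 replicate 4 lay apart from its group.

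**Figure D4:**
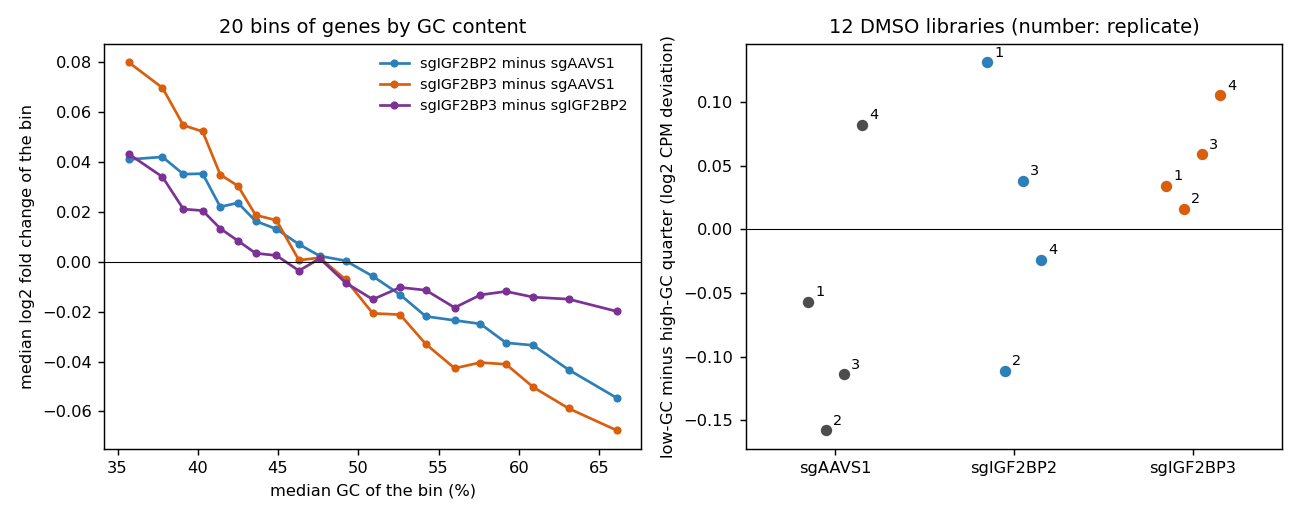
Left, median log2 fold change of 20 bins of genes by transcript GC content (horizontal axis, percent) for each pair of uninduced lines; right, deviation of low-GC minus high-GC genes in each of the 12 libraries on the log2 CPM scale, with points numbered by replicate. The curves fall as GC content rises, and the sgAAVS1 libraries lie between -0.158 and 0.082.

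Leaving out sgAAVS1 replicate 4 raised the genes called between sgIGF2BP3 and sgAAVS1 from 4 to 76, of which 58 were higher and 18 lower in sgIGF2BP3. With a per-library offset for GC content, 2 genes, MSN and DUSP6, were called with that replicate and 2 without it. DESeq2 called 15 genes in this comparison. For MSN, DUSP6, KRT79 and IL13RA2, the pairwise calls were made with the offset too, at log2 fold changes of -1.18 (MSN) and -0.2 (DUSP6) for sgIGF2BP3 against sgAAVS1, -0.8 (KRT79) and -0.28 (DUSP6) for sgIGF2BP2 against sgAAVS1, and -0.83 (MSN) and -0.47 (IL13RA2) for sgIGF2BP3 against sgIGF2BP2. MSN, IL13RA2 and DUSP6 have transcript GC contents of 50.2%, 38.5% and 46.7%, while PHIP is at 36.6% and IGFBP6 at 64.1%. The part of GC content in the other differences between lines was not tested beyond these values.

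The sgIGF2BP3 and sgIGF2BP2 lines were also sequenced with siControl, in libraries that share none with the uninduced comparison. There, edgeR called 2 genes (0.0175%), MSN, lower in sgIGF2BP3, and HMOX1, higher, and 681 genes (5.96%) had an unadjusted p under 0.05. Across 11428 genes, the log2 fold changes of the uninduced and siControl comparisons of these lines had a Pearson's r of -0.0018 and a Spearman's rho of 0.013. Of the 679 genes with an unadjusted p under 0.05 in the uninduced comparison, 365 (53.8%) had the same sign with siControl. Both p-values were under 0.05 with the same sign for 35 genes, 5.15% of the 679 and 5.14% of the 681. Base composition went the other way with siControl (Spearman's rho 0.22, against -0.19 uninduced), and its part in the low correlation was not tested. Between the uninduced and the Dox libraries, Pearson's r was 0.063 and Spearman's rho 0.086 for sgIGF2BP3 against sgIGF2BP2, -0.033 and -0.1 for sgIGF2BP2 against sgAAVS1, and -0.04 and -0.12 for sgIGF2BP3 against sgAAVS1. Of the genes with an unadjusted p under 0.05 when uninduced, 428 of 679 (63.0%), 311 of 759 (41.0%) and 511 of 1341 (38.1%) had the same sign with Dox.

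**Figure D5:**
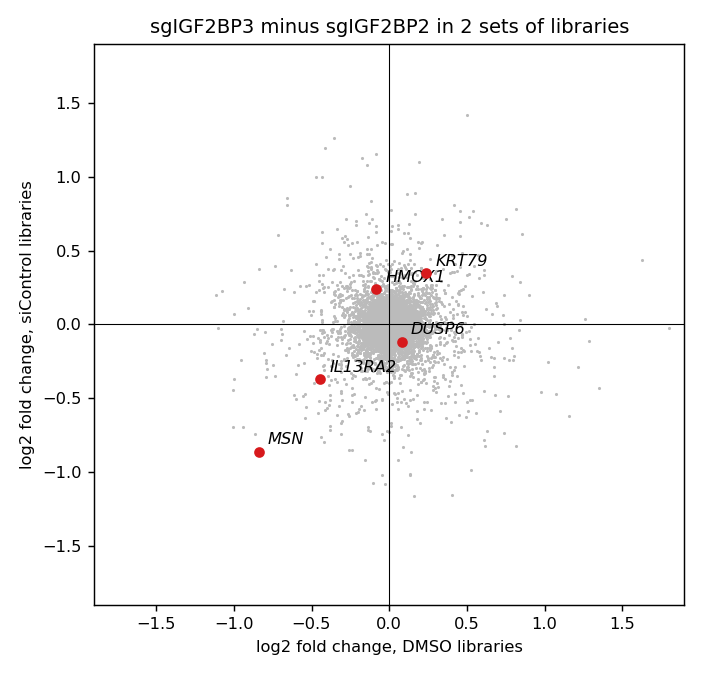
Log2 fold change of sgIGF2BP3 against sgIGF2BP2 in the siControl libraries (vertical axis) against that in the uninduced DMSO libraries (horizontal axis), for 11428 genes; 5 named genes are in red. The cloud is round (Pearson's r -0.0018), and MSN lies at -0.84 in the uninduced and -0.86 in the siControl libraries.

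HMOX1, which encodes the stress-induced enzyme heme oxygenase 1 and was singled out after its values were seen, differed between these settings. Uninduced, it was at 61.7, 65.9, 65.6 and 68.3 CPM in sgIGF2BP2 and at 61.2, 63.4, 62.2 and 60.0 in sgIGF2BP3, which overlapped. With siControl it was at 87.5, 97.0, 90.2 and 88.1 CPM in sgIGF2BP2 and at 109, 104, 113 and 102 in sgIGF2BP3, which did not. The log2 fold change was -0.08 uninduced (edgeR adjusted p = 0.846) and 0.24 with siControl (SE 0.043, edgeR adjusted p = 0.00456), the latter not called without siControl replicate 4 of sgIGF2BP2 or 3 of sgIGF2BP3. The test of the difference between these contrasts called HMOX1 alone (0.00875% of genes, with 5.29% at an unadjusted p under 0.05), at -0.33 (SE 0.063, edgeR adjusted p = 0.0297), and this call was lost in 15 of 31 alternatives, with the offset for GC content among them.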

How the data were processed

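Poly(A) RNA was sequenced from 40 libraries in 10 groups of 4, per the labels' protocols, and the 12 DMSO libraries are described here. The authors deposited whole-number counts of reads per gene, not normalized. Reads were demultiplexed with bcl2fastq 2.20.0.422 and aligned with STAR 2.7.5c, with hg38 named as the genome build, per the submitters' processing notes. The counting tool, its annotation and its use of strand are not given in the sources used here. The counts do not separate newly made from older RNA. In the table, 19962 gene identifiers were listed, of which 19847 matched GENCODE release 29 and 93 others were named from a gene name table, and all 40 count columns were mapped to a library by name. Counts were tested with edgeR 4.0.16 (quasi-likelihood, R 4.3.3, limma 3.58.1) on all 40 libraries with 1 coefficient a group, TMM scaling, filterByExpr by group and Benjamini-Hochberg adjustment over 11428 genes. The common biological coefficient of variation was 3.785%. Standard errors are the log2 fold change over the square root of F. The test was checked on simulated counts. Depth ranged from 11900000 to 24800000 counts, and intervals cover the spread between libraries. The GC content and length of a gene are those of its longest GENCODE transcript. The named genes are those called in a line against the mean of the others (up to 8 each way) or between a pair of lines (up to 4 each way), averaging 2 or more on the log2 CPM scale without overlap of libraries, up to 3 genes per list with an adjusted p under 0.05 in the 3-group test, and IGF2BP1, IGF2BP2, IGF2BP3 and SPOP. EZR, RDX, PPP1R12C, HMOX1, HMMR, PHF20, ANGPTL4, DNAJB1, KIF14, MT-ATP8, MYC, DUSP4, DUSP5 and keratins were added beside them after values were seen. The gene lists came from general knowledge, and the members, lists and tests were chosen with earlier results of these data known. Alternatives were DESeq2 1.42.0, other scalings and filters, thinning to the smallest total, a test against 1.2-fold, a replicate block, a GC offset and leaving out each DMSO or siControl library. The GC offsets, the block within 12 libraries and leaving out siControl libraries were chosen after seeing the data.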

Additional observations from a re-analysis of the deposited data

Results flagged for a closer look

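DUSP6 in the uninduced sgIGF2BP3 line had 1 library, replicate 2, at 111 CPM, far below the other 3 at 120 to 121 CPM relative to the range of the group. A gap of this kind is met by chance in about 1 in 20 groups. The contrasts between lines were also tested for a change from the uninduced to the Dox libraries. For DUSP6 they moved by 0.69 (sgIGF2BP2 against sgAAVS1), 0.44 (sgIGF2BP3 against sgAAVS1) and -0.24 (sgIGF2BP3 against sgIGF2BP2) on the log2 scale, with edgeR adjusted p of 9.43e-15, 1.4e-07 and 0.00631. TAGLN2 moved by -0.29 and -0.15 in the first 2 contrasts (edgeR adjusted p = 1.84e-05 and 0.0428), so that it was further below sgAAVS1 after Dox. CLSPN moved by -0.22 for sgIGF2BP2 against sgAAVS1 and by 0.23 for sgIGF2BP3 against sgIGF2BP2 (edgeR adjusted p = 0.0172 and 0.0152). IGF2BP2 moved by -1.44 for sgIGF2BP2 against sgAAVS1 and by 1.39 for sgIGF2BP3 against sgIGF2BP2 (edgeR adjusted p = 4.68e-27 and 1.22e-26). IGF2BP3 moved by -1.73 for sgIGF2BP3 against sgAAVS1, -1.44 for sgIGF2BP3 against sgIGF2BP2 and -0.29 for sgIGF2BP2 against sgAAVS1 (edgeR adjusted p = 1.89e-34, 1.44e-29 and 0.000367). SPOP moved by 1.86 for sgIGF2BP2 and 1.7 for sgIGF2BP3 against sgAAVS1 (edgeR adjusted p = 3.07e-24 and 6.76e-22), with 10.1 to 13.1 CPM in the 4 sgAAVS1 libraries with Dox and 35.7 to 38.9 in the 4 without. HMOX1 moved by 0.3 for sgIGF2BP2 against sgAAVS1 and by -0.34 for sgIGF2BP3 against sgIGF2BP2 (edgeR adjusted p = 0.00168 and 0.000625). For HMOX1 the contrast of sgIGF2BP3 with sgIGF2BP2 also differed between DMSO and siControl libraries, by -0.33 (edgeR adjusted p = 0.0297).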

How the results depend on the processing

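Direction was the same in all alternatives run for the 8 called genes. MSN against sgAAVS1 in sgIGF2BP3 was called in all 25 that gave a value (-1.26 to -1.12), its adjusted p being NA in DESeq2, and MSN in sgIGF2BP3 against the mean of the others in all 26. KRT79 and DUSP6 in sgIGF2BP2 against sgAAVS1 were called in 25 of 26, the exception being the test against 1.2-fold. Calls held in 17 of 26 for DUSP6 in sgIGF2BP3 against sgAAVS1 and for MSN and IL13RA2 in sgIGF2BP3 against sgIGF2BP2, in 13 for CLSPN and PHIP, in 15 for IGFBP6 and in 16 for TAGLN2. Counts that moved by over 1.5 times follow, and the cause was not tested unless the setting itself shows it. Between sgIGF2BP2 and sgAAVS1 (2 genes), 4 were called with no filter on low counts and 0 against 1.2-fold. Between sgIGF2BP3 and sgAAVS1 (4 genes), 1 was called in the 12 libraries alone, 27 with no filter, 1 against 1.2-fold, 2 with edgeR's legacy fit, 15 with DESeq2, 2 with the GC offset and 2 with the offset and without sgAAVS1 replicate 4. Between sgIGF2BP3 and sgIGF2BP2 (2 genes), 0 were called against 1.2-fold and 0 after thinning. The 3-group test (3 genes) called 5 on library totals without TMM and 20 with no filter. For sgAAVS1 against the mean (5 genes) the counts were 15 with no filter, 0 against 1.2-fold and 3 with the GC offset. For sgIGF2BP2 against the mean (1 gene) they were 0 in the 12 libraries alone, 3 with no filter, 0 against 1.2-fold and 0 after thinning. For sgIGF2BP3 against the mean (1 gene) they were 3 on library totals, 23 with no filter, 2 with the GC offset and 2 with the offset and without sgAAVS1 replicate 4. With siControl (2 genes) they were 10 with no filter, 0 against 1.2-fold and 4 after thinning. For the DMSO and siControl difference (1 gene) they were 3 with no filter, and 0 on library totals, against 1.2-fold, with the GC offset, and with the offset and without sgAAVS1 replicate 4.

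The libraries left out in turn were the uninduced ones and, for contrasts with siControl, also the siControl ones. This gave 2 to 2 genes for sgIGF2BP2 against sgAAVS1, 1 to 76 for sgIGF2BP3 against sgAAVS1 and 0 to 2 for sgIGF2BP3 against sgIGF2BP2. The 3-group test gave 2 to 22, the lines against the mean 2 to 30 (sgAAVS1), 0 to 1 (sgIGF2BP2) and 1 to 18 (sgIGF2BP3), siControl 0 to 6 and the DMSO and siControl difference 0 to 1. The highest counts of 76, 22, 30 and 18 were those without sgAAVS1 replicate 4. With siControl, MSN was not called without sgIGF2BP2 replicate 3 or 4 or sgIGF2BP3 replicate 2 or 4, and 6 genes were called without sgIGF2BP2 replicate 1.

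The replicate numbers were not taken to pair the libraries, and what a number marks, such as a shared plate or day, is not given in the sources used here. Same-numbered libraries of different lines had correlations of their deviations of -0.0207 to 0.0966 (median 0.0284, other pairs -0.00795), and 7 of 12 libraries correlated best with their own number. The share of mitochondrially encoded counts was 7.84 to 8.01% in the 3 libraries numbered 1, 8.15 to 8.16% in those numbered 2, 8.36 to 8.54% in those numbered 3 and 8.50 to 8.88% in those numbered 4. Within each line this share rose with the replicate number. With a replicate block over all 40 libraries, 7 genes were called between sgIGF2BP3 and sgAAVS1 and 5 with siControl. With the replicate block in the 12 libraries alone, counts were 5, 108 and 9 for the pairs of lines in the order above, 49 in the 3-group test, and 36, 3 and 57 against the mean. With that block and the GC offset they were 6, 59, 69, 84, 16, 25 and 71. In both of these fits MYC, among the MAPK feedback, immediate early and reported IGF2BP target genes, was called between sgIGF2BP3 and sgAAVS1. IGF2BP2 was called between sgIGF2BP3 and sgIGF2BP2 in the second (0.15, edgeR adjusted p = 0.0174), and in no other of its 26 alternatives. KRT79 was called between sgIGF2BP3 and sgAAVS1 in all 3 fits with a block.

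IGF2BP3 between sgIGF2BP3 and sgIGF2BP2, at 0.01, changed sign to -0.0033 after thinning, to -0.01 with the GC offset, alone, without sgAAVS1 replicate 4 or with the replicate block, to -0.02 without sgIGF2BP2 replicate 2 and to -0.0034 without sgIGF2BP3 replicate 4 (range over libraries left out -0.02 to 0.02). SPOP between sgIGF2BP2 and sgAAVS1, at 0.04, changed to -0.0019 without sgIGF2BP2 replicate 3 (range -0.0019 to 0.07). Library totals in place of TMM moved 24 of 72 chromosome medians and 2 of 60 list medians beyond their spread.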
